A study of Mus musculus with 8 samples.

Results

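The loci of Spry2 and Spry4 were examined in H3K27ac profiles of 266-6 cells, a mouse pancreatic acinar line. Sprouty proteins are feedback inhibitors of receptor tyrosine kinases: growth factor signalling through RAS and ERK raises their transcription, and the proteins then dampen that same cascade. Spry2 and Spry4 are 2 of the mammalian Sprouty genes, and both are used as readouts of ERK activity. H3K27ac is an acetylation of histone H3 that marks active promoters and enhancers, and its peaks show which stretches around these genes carry the mark of active regulatory DNA. Members were all peaks overlapping either of a pair of mm9 windows, 80 kb named for Spry4 (chromosome 18 from 38720000 to 38800000) and 110 kb named for Spry2 (chromosome 14 from 106240000 to 106350000). In all 8 libraries these windows held 32 peaks, which merged to 6 of the 33920 regions of the series. Peaks were selected by position, but the genes were picked with EGF results of these data known, so the choice counts as one selected on peak presence, width and fold under EGF. Those values are given as a description, without a test.

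The 4 groups had 2 libraries each. Knockdown cells with EGF received siRNA against Arid1a, which codes for a subunit of SWI/SNF chromatin remodellers, followed by EGF. EGF cells received a non-targeting siRNA and EGF, knockdown cells the Arid1a siRNA and vehicle, and control cells the non-targeting siRNA and vehicle. All cells were transfected with siRNA (25 nM, 48 h) and kept overnight without serum, after which EGF (40 ng/ml) or its vehicle, 0.1% BSA, was added for 8 h. The knockdown was transient, the siRNAs are labelled for ARID1A, and Arid1a levels were not analysed here, so knockdown names the siRNA given. Whether duplicates were separate cultures is not labelled, and p-values therefore reflect a spread that may be technical. Read depth is unknown. The lists held 22030 to 23256 peaks with EGF and 22167 to 28281 with vehicle, and covered 33.9 to 36.8 Mb with EGF and 34.3 to 48.7 Mb with vehicle, the first control list being the shortest vehicle list. A region without a peak is one where none was called, which does not mean absence of acetylation.

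No annotation of build mm9 was used here, so peaks are placed by window and not by exon, intron or promoter. The regions are named here by position and behaviour. The Spry4 window held a gained region (38760365 to 38762041), seen with EGF alone, and a shared region (38790788 to 38792079), with a peak in all 8 libraries, 28.7 kb further on. In the Spry2 window a side region (106289848 to 106290883) lay 987 bp before a broad region (106291871 to 106298790). A middle region (106319891 to 106321177) followed 21.1 kb after the broad one, and a far region (106340404 to 106341102) another 19.2 kb on. In the RefSeq annotation of GRCm38.p6, used for gene order alone, Spry4 stands between Ndfip1 and Arhgap26, and Spry2 between Ndfip2 and Trim52 among protein-coding genes. A peak in the Spry4 window may therefore belong to a neighbour such as Arhgap26, which was not tested.

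**Figure D1:**
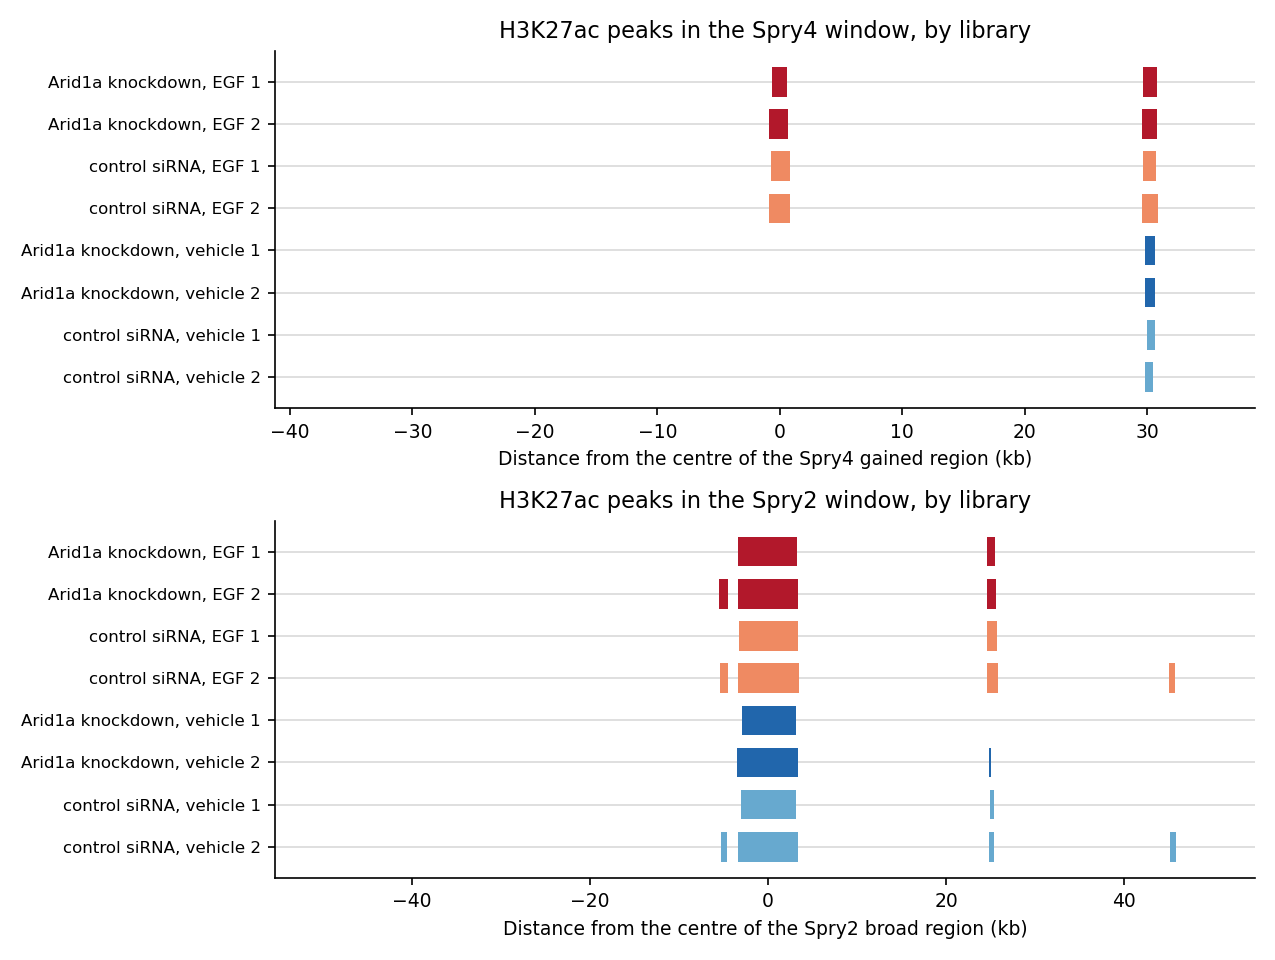
Peaks of each library (bars to scale) in the Spry4 window, above, and the Spry2 window, below, against distance in kb from the centre of the Spry4 gained region and of the Spry2 broad region. The gained region of Spry4 has bars in the 4 EGF libraries and in none of the 4 vehicle libraries, and the broad region of Spry2 has bars of 6125 to 6805 bp in all 8.

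The promoter of Spry2 is shown as sequence context for its locus. The sequence is the 250 bases before the gene's start in RefSeq, GRCm38.p6, chr14:105896820-105897069, minus strand. That build differs from mm9, so the promoter was not placed on the peaks. Capitals mark GGAA, the core bound by ETS factors, which carry out much of the transcriptional response to ERK.

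Spry2 promoter: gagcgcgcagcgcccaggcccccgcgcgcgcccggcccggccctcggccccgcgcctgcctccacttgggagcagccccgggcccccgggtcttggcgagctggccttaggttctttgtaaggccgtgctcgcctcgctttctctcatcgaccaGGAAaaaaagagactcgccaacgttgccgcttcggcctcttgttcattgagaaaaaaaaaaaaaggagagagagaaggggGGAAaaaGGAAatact

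GGAA was searched on both strands and matched 3 times, all on the gene's strand and without overlap. Such a match is common, in 93.4% of 32851 promoter stretches of this length. The longer ETS form CCGGAAG (6.91% of the stretches), the AP-1 site TGANTCA (6.75%) and the CArG box bound by serum response factor (1.47%), searched on both strands, had no match in these 250 bases, which says only that these letters are not in this stretch. Its GC content was 62.4%, against a median of 52.4% over all the stretches, and it held 23 CpG dinucleotides against a median of 6.

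At Spry4, EGF-treated cells had a peak that vehicle-treated cells lacked. The gained region was covered over 1241 and 1522 bp in knockdown cells with EGF and over 1562 and 1677 bp in EGF cells, and no peak was called in either knockdown or either control library. The EGF and vehicle libraries did not overlap in either Arid1a state. The peak of the first EGF library had a score of 37, under the pooled median score of 40, so that among peaks above that score the region was not gained in control siRNA cells. Of all 33920 regions, 0.404% had a peak in all 4 EGF libraries and none of the 4 vehicle libraries, and 1.61% the reverse. Within a state the share was 0.996% in knockdown cells (8.4% for the reverse) and 2.0% in control siRNA cells (4.26% for the reverse). These shares stand beside the region as background, since the windows were chosen with this contrast known.

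The peaks of the gained region were of middling strength. Their fold enrichment over the caller's background, the authors' own value, was 5.75 and 5.34 in knockdown cells with EGF and 4.79 and 5.63 in EGF cells. In their own lists these values lay at percentiles 54.7 to 66.4 of fold, and the widths at percentiles 52.0 to 68.4. A core of 1241 bp, from 38760549 to 38761789, was covered in all 4 EGF libraries, and the first EGF-treated knockdown library was limited to it. On the scale of log2(covered bp + 200) the limma estimate of the EGF difference was 2.98 ± 0.30 in knockdown cells and 3.18 ± 0.30 in control siRNA cells (SE, n = 2 against 2 each). These sizes depend on the 200 bp added, because the vehicle groups have no peak, and are no bound: with 50 bp added they were 4.83 and 5.06, and with 1000 bp 1.25 and 1.39. The SE uses a spread pooled over the 4 groups and moderated by that of all tested regions. Vehicle libraries, all at 0 bp here, add no spread of their own. Among peaks whose score, the authors' own value, was above 40, the median over all lists, the difference in control siRNA cells was 1.62. Averaged over both states, the difference was 3.08, and a larger one was found in 12 of the 28146 regions whose peaks came from at least 2 libraries. That place is a description and no support, since the windows were chosen with EGF results known. The region also passed the filter of 2 libraries through its EGF peaks alone.

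The shared region of Spry4 carried a peak in every library, wider and higher in rank with EGF. It was covered over 1168 and 1269 bp in knockdown cells with EGF and 1057 and 1276 bp in EGF cells, against 809 and 750 bp in knockdown cells and 649 and 616 bp in control cells. All 4 EGF libraries lay above all 4 vehicle libraries, with means of 1192.5 ± 103 bp and 706 ± 89.2 bp (SD, n = 4 each). Among the 28146 regions, 2.33% had this order and 14.0% the reverse one. EGF peaks reached past the outermost vehicle edge on both sides, by 155 to 262 bp on the left and 93 to 221 bp on the right. The limma estimate of the EGF difference was 0.53 ± 0.18 in knockdown cells and 0.71 ± 0.18 in control siRNA cells (SE), where the median over all regions was -0.32 and -0.14. Quantile normalization gave 1.15 and 1.21, and 1000 bp added in place of 200 gave 0.32 and 0.41. Peaks above that score gave 1.75 in control siRNA cells and left the 0.53 of knockdown cells as it was.

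Fold values depend on depth, so the fold of the shared region was ranked among the same 16607 regions, those with a peak in all 8 libraries, within each library. The authors' fold itself was 8.04 and 7.52 in knockdown cells with EGF, 7.38 and 8.48 in EGF cells, 4.72 and 4.90 in knockdown cells and 4.204 and 5.11 in control cells. Its percentile was 84.7 and 81.9 in knockdown cells with EGF and 89.9 and 92.6 in EGF cells. In vehicle cells it was 23.6 and 26.4 with knockdown and 23.7 and 32.1 with control siRNA. Every EGF library thus placed the region far above the middle of the shared regions and every vehicle library far below it. The mean percentile was 87.2 ± 4.87 with EGF and 26.5 ± 4.003 with vehicle (SD, n = 4 each), a difference of 60.8 points. A larger difference was found in 17 of the 16607 regions, which is again a description, since the windows were chosen with EGF results known. An order with all 4 EGF percentiles above all 4 vehicle ones was common by itself, in 17.0% of the shared regions.

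**Figure D2:**
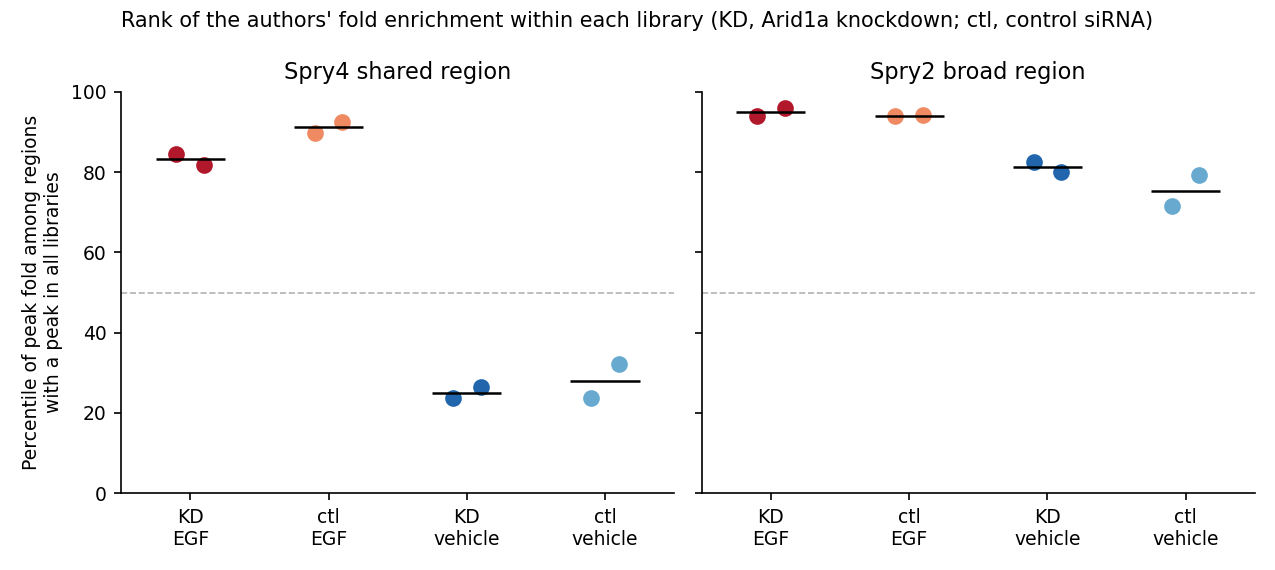
Percentile of the authors' peak fold within each library among the 16607 regions with a peak in all libraries, for the shared region of Spry4 (left) and the broad region of Spry2 (right). Points are libraries and lines are group means: the Spry4 region lies at 81.9 to 92.6 with EGF and 23.6 to 32.1 with vehicle, and the Spry2 region at 93.9 to 96.0 and 71.5 to 82.7.

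The Spry2 window was dominated by a broad domain present in every library whatever the treatment. The broad region was covered over 6668 and 6730 bp in knockdown cells with EGF and 6592 and 6797 bp in EGF cells. In vehicle cells the values were 6125 and 6805 bp with knockdown and 6239 and 6672 bp with control siRNA. The EGF and vehicle libraries overlapped in width, at 6696.75 ± 87.5 bp and 6460.25 ± 329 bp (SD, n = 4 each). A stretch of 6124 bp was covered in all 8 libraries. The widths stood at percentiles 97.7 to 99.0 of their own lists. The limma estimate of the EGF difference was 0.05 ± 0.08 in each Arid1a state (SE). It depended on scaling: after quantile normalization it was 0.30 ± 0.08 in knockdown cells and 0.20 ± 0.08 in control siRNA cells (SE). With the side region merged into it, across gaps of up to 1000 bp, it was 0.15 in knockdown cells.

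Ranked among the shared regions, both fold and width of the broad region kept the EGF and vehicle libraries apart. Width lay at percentiles 97.6 to 98.0 with EGF and 95.9 to 97.5 with vehicle. How many shared regions keep that order of width was not counted. The authors' fold was 9.51 and 9.85 in knockdown cells with EGF, 7.95 and 8.80 in EGF cells, 8.89 and 8.66 in knockdown cells and 6.03 and 7.92 in control cells. Those raw values overlapped between treatments. The percentile among the shared regions was 94.1 and 96.0 in knockdown cells with EGF, 93.9 and 94.2 in EGF cells, 82.7 and 80.2 in knockdown cells and 71.5 and 79.2 in control cells. The mean percentile was 94.6 ± 0.934 with EGF and 78.4 ± 4.795 with vehicle (SD, n = 4 each). That difference of 16.2 points was exceeded in 15.9% of the shared regions, so it was not rare among them, and 17.0% had the same complete order.

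The middle region of Spry2 was wider in every EGF library. It was covered over 858 and 1036 bp in knockdown cells with EGF and 1157 and 1241 bp in EGF cells, against 0 and 206 bp in knockdown cells and 512 and 537 bp in control cells. As at the shared region of Spry4, the 4 EGF libraries lay above the 4 vehicle libraries, an order held by 2.33% of the tested regions. EGF peaks reached past the outermost vehicle edge by 177 to 243 bp on the left and 75 to 438 bp on the right. The limma estimate of the EGF difference was 2.00 ± 0.39 in knockdown cells and 0.95 ± 0.39 in control siRNA cells (SE). Fold was 5.20 and 4.61 in knockdown cells with EGF and 4.45 and 5.18 in EGF cells. In vehicle cells it was 4.09 in the one knockdown library with a peak and 3.32 and 4.42 in control cells, so the highest vehicle value lay just below the lowest EGF value. Ranked within their own lists these overlapped: the second control library was at percentile 45.6 of fold and the first EGF library at 45.2.

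Peaks at the side and far regions came from second libraries alone. The side region was covered over 1036 bp in the second EGF-treated knockdown library, 942 bp in the second EGF library and 732 bp in the second control library. The far region was covered over 661 bp in the second EGF library and 670 bp in the second control library. Fold there was 3.52 to 4.14, at percentiles 15.3 to 38.8 of the list. In each group the second list was the longer one, by peak number and by covered length. With every list cut to its 22030 peaks of highest score, the side peak of the second control library was no longer in its list. The limma EGF difference of the side region in control siRNA cells was then 1.26 instead of 0.15. For the far region it stayed at -0.0075. The part of list length beyond this cut was not tested.

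**Figure D3:**
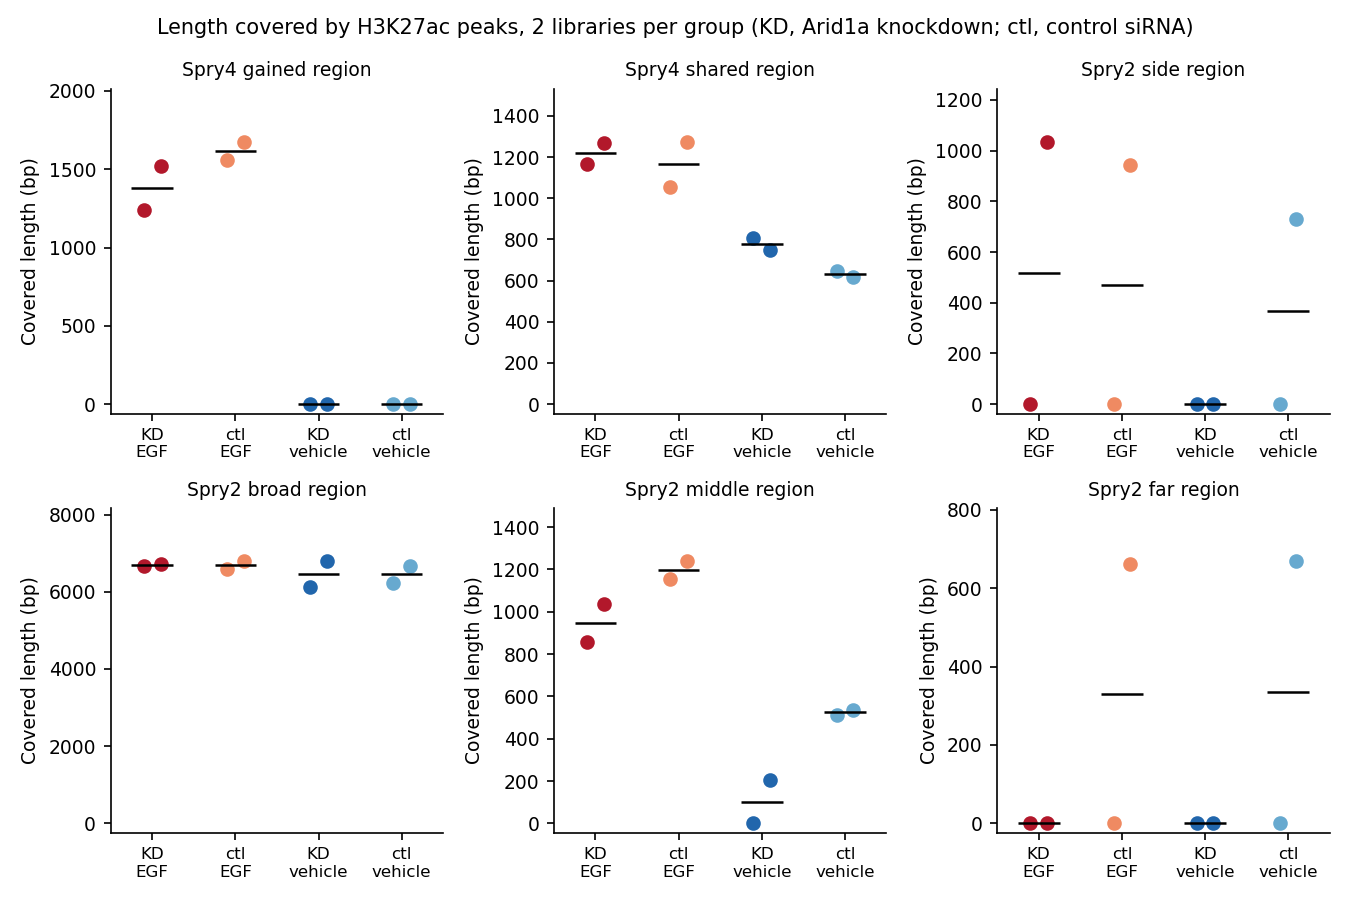
Length in bp covered by peaks in each of the 6 regions (points, 2 libraries per group; lines, group means), with EGF groups left of vehicle groups and knockdown left of control siRNA within each pair. EGF libraries lie above all vehicle libraries in the gained and shared regions of Spry4 and the middle region of Spry2, and overlap them in the side, broad and far regions.

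Over the whole windows, EGF went with more covered sequence at Spry4, without overlap between treatments. The cover there is that of the gained and shared regions together. The Spry4 window was covered over 2600.0 ± 270 bp in knockdown cells with EGF and 2786 ± 236 bp in EGF cells, against 779.5 ± 41.7 bp in knockdown cells and 632.5 ± 23.3 bp in control cells (SD, n = 2 each). The Spry2 window was covered over 8164 ± 902 bp in knockdown cells with EGF, 8695 ± 1338 bp in EGF cells, 6568 ± 626 bp in knockdown cells and 7681 ± 1315 bp in control cells (SD, n = 2 each). There the EGF libraries, at 7526 to 9641 bp, overlapped the vehicle libraries, at 6125 to 8611 bp. The EGF difference there in control siRNA cells was 1014 bp with all libraries and 68 bp without the second EGF library, and 84 bp without the first control library. Per Mb covered by its own list, the Spry2 window held 220 to 272 bp with EGF and 132 to 197 bp with vehicle. The Spry4 window held 70.3 to 83.2 bp per Mb with EGF and 13.1 to 18.9 bp with vehicle. Both loci thus kept the treatments apart on this scale, which divides most vehicle libraries by a longer covered list than any EGF library. At Spry2 the treatments were apart only after that division. How many other windows keep the treatments apart, in bp or on this scale, was not counted.

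Knockdown of Arid1a was set against control siRNA to ask whether the Sprouty regions depend on it, and no difference passed the limma test. With few libraries a group the test can miss differences, so this does not show that the regions are independent of Arid1a. Each comparison used covered length per region, with p-values adjusted by Benjamini-Hochberg over all 28146 regions. Of the 6 regions, limma called 0 for knockdown with vehicle (1 at an unadjusted p under 0.05, smallest adjusted p = 0.207), where it called 1.37% of all regions and 3576 of them reached that unadjusted level. The gained region of Spry4 could not be called there, since no vehicle library had a peak in it. With EGF it called 0 (0 at an unadjusted p under 0.05), against 0.661% of all and 3047 regions at that level. For the mean of both it called 0 (1 at an unadjusted p under 0.05), against 0.352% of all and 5038 at that level. By peak presence, 0 of the 6 were seen in both libraries of one siRNA and neither of the other. Over all regions this held with vehicle for 3.04% in favour of knockdown and 0.778% in favour of control siRNA, and with EGF for 2.02% and 2.34%.

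The middle region of Spry2 came nearest to a knockdown difference. Its log2 difference, knockdown minus control siRNA, was -1.35 ± 0.39 with vehicle (SE; 95% interval -2.30 to -0.40; limma adjusted p = 0.207) and -0.29 ± 0.39 with EGF (SE; limma adjusted p = 0.933). With either treatment both knockdown libraries lay below both control siRNA libraries, but neither difference passed the threshold. How many of all regions had this order was not counted, so it is no result about this region. The difference with vehicle was -0.84 without the first knockdown library given vehicle and -1.86 without the second, and -2.34 and -0.47 with 50 and 1000 bp added in place of 200. For the shared region of Spry4 the mean difference over both treatments was 0.15 ± 0.12 (SE; 95% interval -0.16 to 0.45; limma adjusted p = 0.585). For the broad region of Spry2 it was 0.00101 ± 0.0561 (SE; 95% interval -0.14 to 0.14; limma adjusted p = 0.995). At the gained region of Spry4, knockdown differed from control siRNA under EGF by -0.21 ± 0.30 (SE; 95% interval -0.94 to 0.53; limma adjusted p = 0.954).

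The EGF difference was then compared between Arid1a states by an interaction term, EGF effect in knockdown cells minus EGF effect in control siRNA cells. Limma called 0 of the 6 regions (0 at an unadjusted p under 0.05, smallest adjusted p = 0.702) and 0.0% of the 28146 tested (2525 of them had an unadjusted p under 0.05). The term was -0.18 ± 0.25 for the shared region of Spry4 (SE; 95% interval -0.79 to 0.43). At the gained region of Spry4 no vehicle library had a peak. There the term, -0.21 ± 0.43 (SE; 95% interval -1.25 to 0.83), repeats the knockdown difference under EGF and is no separate result. For the middle region of Spry2 it was 1.06 ± 0.55 (SE; 95% interval -0.29 to 2.40; limma adjusted p = 0.702). It was 0.55 without the first knockdown library given vehicle and 1.57 without the second, and 2.01 and 0.30 with 50 and 1000 bp added. With 2 libraries a group these intervals are wide, so the states are not shown to act alike. The 4 comparisons between pairs of groups share libraries, each group serving in 2 of them, and the mean knockdown difference and the interaction each use all 4 groups.

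**Figure D4:**
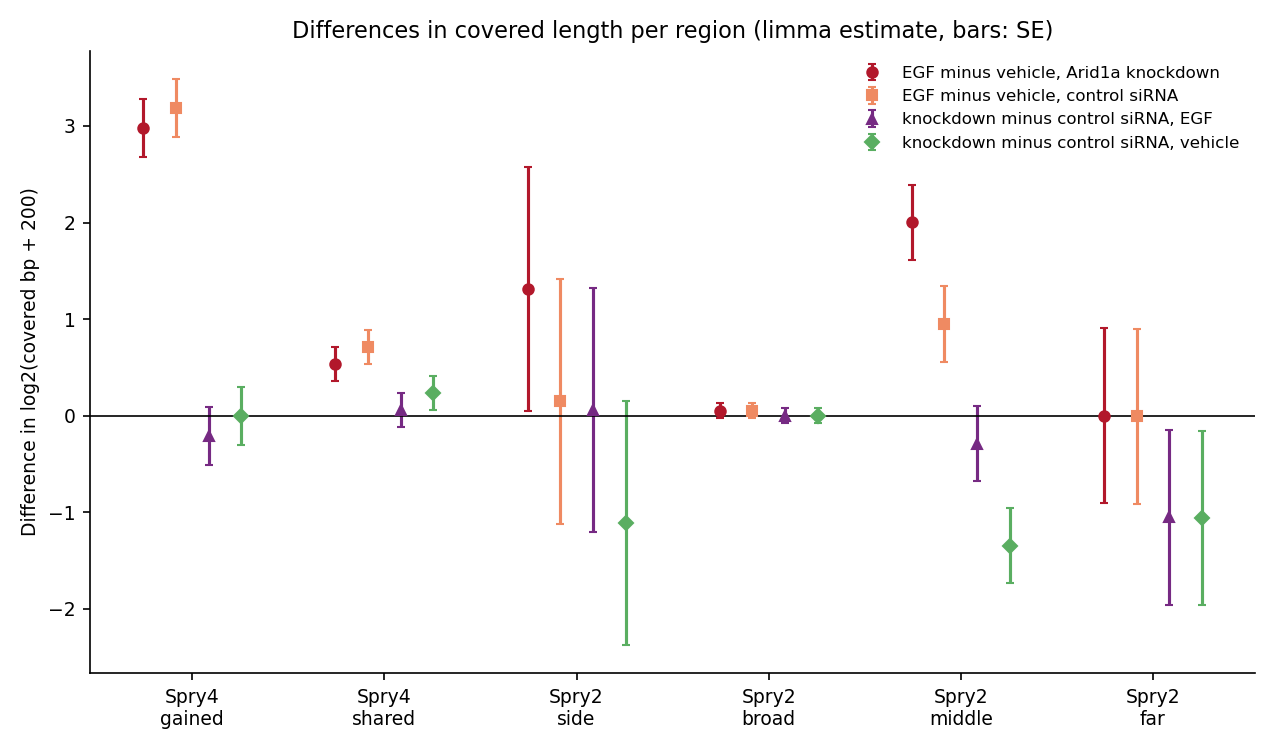
Limma differences in log2(covered bp + 200) for the 6 regions, with SE as bars: EGF minus vehicle in each Arid1a state and knockdown minus control siRNA under each treatment. EGF differences are highest at the gained region of Spry4 (2.98 and 3.18) and the middle region of Spry2 (2.00 and 0.95), and the bars are widest at the side and far regions of Spry2, which rest on 3 and 2 libraries.

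The surroundings of the windows differed between the loci. Around Spry4 the nearest regions outside the window, 34.4 kb before and 3.3 kb after it, had a peak in 1 library each. The nearest one before it that more libraries held was 44.4 kb away, on chromosome 18 from 38674007 to 38675649. It was covered over 0 bp in knockdown cells with EGF and a mean of 455.5 bp in EGF cells, against 905.5 bp in knockdown cells and 1066.5 bp in control cells. After it, a wide region 133.8 kb away (38933774 to 38940446), in all 8 libraries, had means of 3636.5 bp, 4179 bp, 5612.5 bp and 4697 bp in the same order. Both had higher means with vehicle, but the treatments overlapped: the second EGF library had 634 bp and 4669 bp in these regions, above the 490 bp and 3931 bp of the first control library.

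Before the Spry2 window, the regions given below had higher group means with EGF, but just the first kept the treatments apart. The nearest, 24.5 kb outside it (106214351 to 106215517), was covered over 1065 and 1033 bp in knockdown cells with EGF and 1000 and 1167 bp in EGF cells, against 273 and 681 bp in knockdown cells and 0 and 513 bp in control cells. All 4 EGF libraries were above the vehicle libraries here as well, an order held by 2.33% of the tested regions. The next, 37.0 kb outside (106201510 to 106202953), overlapped between treatments, at 721 to 1017 bp with EGF and 0 to 840 bp with vehicle. The one after that, 72.2 kb outside (106165898 to 106167821), had 631 and 200 bp in knockdown cells with EGF and 1474 and 1722 bp in EGF cells, against no peak in knockdown cells and 0 and 370 bp in control cells. The treatments overlapped there too, the 200 bp lying below the 370 bp. After the window the nearest region, 48.7 kb on, had a peak in both libraries of EGF cells alone. Of all 33920 regions, 2.0% had a peak in both of these and in neither control library.

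Regions elsewhere with the most similar profile were found by the smallest Euclidean distance of covered bp over the 8 libraries. For the gained region of Spry4 these lay on chromosome 5 from 64829220 to 64830982 (distance 164 bp), chromosome 2 from 25880736 to 25882751 (314 bp) and chromosome 5 from 53177324 to 53178812 (335 bp). Their group means were 1392 to 1482.5 bp in knockdown cells with EGF and 1416.5 to 1614.5 bp in EGF cells, with no peak in any vehicle library. For the middle region of Spry2 the nearest were on chromosome 5 from 43559976 to 43561320 (459 bp), chromosome 17 from 46237862 to 46239179 (510 bp) and chromosome 1 from 136667378 to 136669067 (528 bp). Those distances were larger than for Spry4, and the first 2 regions had no peak in either knockdown library with vehicle, against means of 635.5 and 536 bp in control cells.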

How the data were processed

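The authors deposited 1 peak list per library, with positions, a score, a fold enrichment and −log10 p and q. The tools named in the submitters' processing notes are MACS2 2.1.1.20160309.0, Bowtie2 2.3.4.2, deepTools 3.0.2 and SAMtools, and the build is mm9. Their settings, and any use of an input, were not known here. In the deposited lists the score is about 10 times the −log10 q-value, the fold is a ratio to background set by the peak caller, and the deposited −log10 p was not used. The lowest −log10 q was 1.00, so weaker enrichment is missing from the lists, and deeper libraries can give longer lists and wider peaks.

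Peaks overlapping by at least 1 bp were merged over all lists. Covered length was tested with limma 3.58.1 (R 4.3.3, empirical Bayes with a trend) on log2(covered bp + 200), with 4 group means and a shared spread, over the 28146 regions that had peaks in 2 or more libraries. All 6 members passed this filter. The threshold was an adjusted p of 0.05. Merging and the limma fit were tested on simulated data. The fit found 29% of 100 planted mean knockdown differences of log2 1 and 72% of 100 of log2 3. Noise was normal around each region's mean over all libraries, which does not copy regions lacking a peak in some libraries. The tests within a treatment and of the interaction were not simulated. Duplicates shared at most 20 identical peaks and were counted as separate. Other steps used Python 3.11.15, pandas 2.3.3, NumPy 2.4.6 and matplotlib 3.10.9. The set of RefSeq promoters used here had no entry for Spry4, so the promoter of Spry2 alone is shown.

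The members, lists and tests were chosen with earlier results of these data known. Every region in a window was a member. Those with a complete peak difference between groups and the widest region in all libraries were to be given in full; the middle region of Spry2 is given as well, chosen after its values were seen. Ranks among shared regions and the order of libraries were added after seeing the data. Other ERK feedback genes and acinar markers, planned for an mm9 annotation, were not analysed here.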

Additional observations from a re-analysis of the deposited data

How the results depend on the processing

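Under 16 other settings limma called 0 of the regions tested for any knockdown or interaction comparison (4 regions above the pooled median score, 5 without the second control or the second EGF library, and the side and broad Spry2 regions as one with gaps merged), with the smallest adjusted p of a setting between 0.166 and 0.523 for knockdown with vehicle and 0.437 and 0.912 for the interaction. Among peaks above the pooled median score of 40 the covered length of the Spry4 window differed by 1697 bp for EGF in control siRNA cells (reported, 2153.5), and by 471.5 bp with vehicle and 595 bp with EGF for knockdown minus control siRNA (reported, 147 and -186). The Spry2 window differed by 9.5 bp for knockdown with vehicle (reported, -1113), and 0 regions were gained with EGF in control siRNA cells. Under that setting the gained region of Spry4 had a knockdown difference with EGF and an interaction of 1.36 each, and the middle region of Spry2 an interaction of -0.22, all turned against the reported values. The knockdown difference of the middle region with vehicle was 0 there, since no vehicle peak was left. That score cut left out the peak of the first EGF library (score 37) at the gained region. At the middle region it left out the second EGF-treated knockdown library (score 35), the first EGF library (30) and all vehicle peaks. Nothing beyond these removals was tested as a cause of the turns. Requiring cover of 50% of a region gave 2 regions gained with EGF in either state instead of 1.

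Leaving out single libraries gave window differences in the following ranges. For EGF in control siRNA cells they were 1986.5 to 2320.5 bp at Spry4 and 68 to 1960.0 bp at Spry2, and in knockdown cells 1629.5 to 2011.5 bp and 958 to 2234 bp. For knockdown with vehicle they were 117.5 to 176.5 bp and -2043 to -183 bp, and with EGF -377 to 5 bp and -1477 to 415 bp. Regions gained with EGF in knockdown cells numbered 1 to 2. Regions lost with knockdown numbered 0 to 2 with vehicle and 0 to 1 with EGF, the highest without the first control and the first EGF library. Fewer libraries make the presence rule easier to meet.

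The mean knockdown difference of the broad Spry2 region, 0.00101, turned to -0.14 with quantile normalization, -0.0308 with regions merged across 1000 bp gaps, and ranged from -0.0358 to 0.0378 with single libraries left out. The interaction of the gained Spry4 region was 0.0240 with quantile normalization. The EGF difference of the middle Spry2 region in knockdown cells was 1.49 without the first and 2.52 without the second knockdown library with vehicle. Replicate numbers did not pair the libraries (correlations of their deviations between groups -0.00929 to 0.0317 over regions), and with a replicate block limma called 0 of the 6 regions. Unknown depth limits all comparisons of width, fold and peak presence.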
